A study of Mus musculus with 2 samples.

Results

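Bone morphogenetic protein (BMP) signalling and the Id genes were followed in RNA-seq libraries of perivascular cells (PCs), the cells that wrap around the endothelium of blood vessels. The 10 genes were taken as a fixed list of symbols, drawn up with earlier results of these data known: the ligand genes Bmp2, Bmp4 and Bmp6, the receptor genes Bmpr1a and Bmpr2, the secreted inhibitor gene Grem1, the inhibitory SMAD gene Smad6, and the target genes Id1, Id2 and Id3. All 10 were found among the 20211 gene symbols of the expression tables, each on a single row. The PCs were primary cultures from the aorta of adult C57BL/6 mice, either WT or Kai1 KO, with 1 library per genotype. Kai1, also named Cd82, encodes a membrane protein of the tetraspanin family, and the study compared both genotypes to look for ways in which Kai1 restrains the growth of blood vessels. The labels give DMEM with 10% FBS for both cultures, whereas the study's methods give another serum share. The sources used here do not describe the knockout allele, the number of mice behind each culture, or the sex of the mouse or mice behind either library.

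BMPs are secreted ligands of the TGF-beta superfamily. They bring together type I and type II receptor kinases at the cell surface, and the activated type I receptor phosphorylates SMAD1, SMAD5 and SMAD9, which join SMAD4 and enter the nucleus. The Id genes are the best known immediate targets of these SMADs. Id proteins carry a helix-loop-helix but no DNA-binding region, and they hold bHLH transcription factors away from DNA. Secreted inhibitors such as gremlin, noggin and chordin bind the ligand before it reaches the receptor, and SMAD6 and SMAD7, themselves induced by the pathway, act inside the cell as a brake. In the vessel wall the pathway is known for its part in the growth and maturation of endothelium and mural cells.

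The best known DNA element for BMP-activated SMADs is a composite of a GC-rich stretch and the short SMAD box. It was searched for as GNCGNC and GTCT separated by 5 bases, on both strands, in the 3000 bases before the annotated start of each protein-coding gene of the mouse build NCBI37 (mm9), the build of the deposited files. Of 22102 genes scanned, 431 (1.95%) held a match. Among the 10 genes described here 4 did, namely Id1, Id2, Id3 and Smad6, which are the 4 target genes of the list, with 5 matches in all. The 6 genes for ligands, receptors and gremlin had none in this window. The length of the window was chosen after matches had been seen, and within 2000 bases 348 genes (1.57%) and 3 of the 10 genes held a match. The element and these target genes are both known from work on BMP signalling, so the count of 4 is no independent result. The 5 matches are shown because they are the feature of sequence that these target genes share and that the other members lack in this window. Each is printed from mm9 on the strand of its gene, 5′ to 3′, with up to 20 bases on either side, and capitals mark the letters of GNCGNC and GTCT.

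Id1, chr2:152560922-152560976, plus strand, ending 1031 bases before the start: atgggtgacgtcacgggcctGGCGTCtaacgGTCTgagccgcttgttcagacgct
Id2, chr12:25783699-25783753, minus strand, ending 2762 bases before the start: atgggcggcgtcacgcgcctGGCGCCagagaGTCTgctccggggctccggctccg
Id3 distal, chr4:135696435-135696489, plus strand, ending 2943 bases before the start: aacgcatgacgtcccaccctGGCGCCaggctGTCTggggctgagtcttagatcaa
Id3 proximal, chr4:135699210-135699264, plus strand, ending 168 bases before the start: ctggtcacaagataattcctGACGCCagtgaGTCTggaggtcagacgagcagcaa
Smad6, chr9:63869867-63869901, minus strand, ending 1 base before the start: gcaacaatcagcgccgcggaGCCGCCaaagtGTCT

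The distances count to the last base of the match. All 5 lie on the strand of their gene. The Id1 and Id2 stretches share 35 of 55 bases, and the likeness lies upstream of the match, where 17 of 20 bases are the same, against 8 of 20 downstream. The Id1 and distal Id3 stretches share 23 bases, and the Id2 and distal Id3 stretches share 26. With the proximal Id3 stretch, Id1 shares 17 bases, Id2 24 and distal Id3 28. The fixed letters of the element add to each of these counts because the search required them. How many bases unrelated stretches would share was not computed. The Smad6 match ends at the annotated start, so that its stretch is cut there. In the list of 15 BMP target genes given further on, the same 4 genes held a match. A match is a run of letters, and no binding was measured in these libraries.

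Both libraries were described by 1 RPKM value per gene, a read count scaled per kilobase of transcript and to the depth of the library, so that levels of different genes can be set side by side. The low values fell on steps of whole reads, which placed the depth at an estimated 29600000 reads for WT and 26600000 for Kai1 KO. With 1 library per genotype there is no replicate error, no test and no p-value, and the intervals below are 95% intervals from the estimated reads and cover counting error only. The targeted gene Cd82 had 12.8 RPKM in WT and 2.62 in Kai1 KO, 4.89-fold lower. Of 10 mural cell markers, Acta2 was at 3823 RPKM in WT and 2580 in Kai1 KO, and Pdgfrb at 44.7 and 31.6. Tagln was at 633 and 307 RPKM, Cnn1 at 120 and 49.2, and Cspg4 at 15.4 and 8.27. Myh11 was at 2.96 and 0.346 RPKM, and Mcam at 4.90 and 0.264. Rgs5, Des and Notch3 had means below 1 RPKM. The list summed to 4646 and 2977 RPKM, most of it Acta2. Of the markers of other cells, the 8 endothelial ones summed to 0.994 RPKM in WT and were all listed at 0 in Kai1 KO. The 10 macrophage markers summed to 17.1 RPKM in WT and 4.35 in Kai1 KO, with Csf1r at 11.7 and 2.66 and Lyz2 at 3.44 and 1.09, while Emr1, C1qa and C1qb were at 0 in both libraries. The 8 epithelial markers summed to 30.1 and 92.3 RPKM, nearly all of it Krt19 at 29.3 and 91.3. The libraries differed in 2 further respects. Of 11 proliferation markers, 10 were more than 2-fold higher in Kai1 KO, beside 7.98% of genes with a mean of 1 RPKM or more. These 11 markers summed to 176 and 495 RPKM. The 4 Y-linked genes examined were listed at 0 in Kai1 KO and were all above 0 in WT, with Ddx3y at 6.56 RPKM. RNA of these Y-linked genes was thus detected in the WT library alone. With 1 library per genotype, any effect of what underlies this difference cannot be told apart from that of genotype. The part of all these differences in the values below was not tested. In bulk RNA, fewer cells of a type and less RNA per cell cannot be told apart.

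Bmp4 was the member that differed most between the libraries among those of a mean level of 1 RPKM or more, and in the deposited values the Id genes, the receptors and Grem1 differed by less than a factor of 1.5. Ratios were taken as log2 of Kai1 KO over WT after adding 0.1 RPKM to both, which understates the difference of low genes, and a gene was counted as higher or lower past 2-fold. Genes with a mean of 1 RPKM or more over both libraries were kept for these counts, 10068 in all. Of the 8 members kept, 1 was more than 2-fold higher in Kai1 KO (Bmp4) and 0 were more than 2-fold lower. Over all 10068 genes, 7.98% were higher and 7.81% lower by this rule, 803 and 786 genes, so that the members' count was close to that of the whole table. With the upper quartiles of both libraries made equal, 594 genes were higher and 977 lower, and the members' counts stayed at 1 and 0. The median log2 ratio of the 8 members was 0.069 beside 0.082 for all 10068 genes. Over all 10 members it was -0.088. Setting Bmp2 and Bmp6, listed at 0 in Kai1 KO, to the level of 3 reads could not move this median, because both stay in the lower part of the order.

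**Figure D1:**
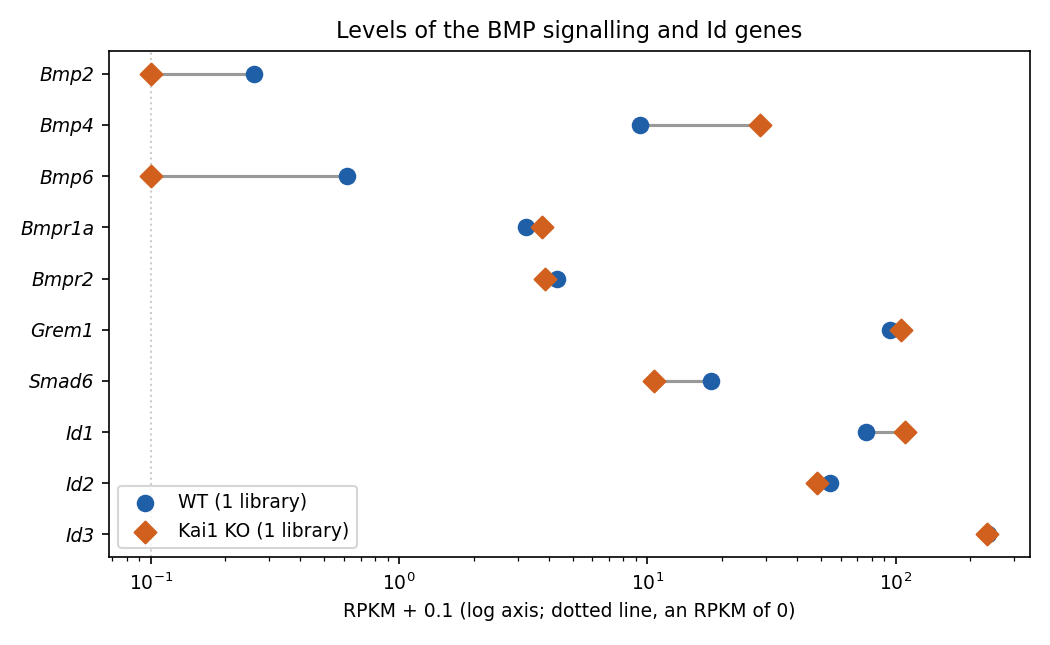
Level of each of the 10 genes in the WT library (circles) and the Kai1 KO library (diamonds), as RPKM plus 0.1 on a log axis, with 1 library per genotype. Id3 lies to the right at 235 and 233 RPKM, Bmp4 moves from 9.24 to 28.4, and Bmp2 and Bmp6 stand at the dotted line of 0 in Kai1 KO.

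The ligands differed from each other in level and in direction. Bmp4, on mm9 chr14:47003195-47010344 (minus strand), encodes BMP4, a ligand that many mesenchymal cells secrete. It had 9.24 RPKM in the WT library, from an estimated 510 reads, and 28.4 RPKM in the Kai1 KO library, from 1410 reads. The Kai1 KO library was thus the higher one, 3.08-fold (2.78 to 3.41), a log2 ratio of 1.61, and the intervals of both levels, 8.45 to 10.1 and 27.0 to 30.0 RPKM, did not overlap. A larger log2 ratio was found for 2.06% of the genes kept. Among the members Bmp4 stood in 6th place by level in WT and in 5th place in Kai1 KO, where it passed Smad6.

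Bmp6 and Bmp2 were expressed at low levels and were seen in the WT library only. Bmp6, on chr13:38436995-38592183 (plus strand), encodes a ligand best known for the control of hepcidin, the iron hormone. It had 0.520 RPKM in WT, from an estimated 48 reads, and was listed at 0 in Kai1 KO, where 3 reads would give 0.0358 RPKM. Bmp2, on chr2:133377895-133388621 (plus strand), encodes a ligand known for bone and heart valve formation. It had 0.160 RPKM in WT, from 16 reads, and was also listed at 0 in Kai1 KO, where 3 reads would give 0.0336 RPKM. Other symbols in a range of level that holds both genes were listed at 0 too. Of 2756 symbols with a WT RPKM from 0.1 to below 1, 504 (18.3%) were at 0 in Kai1 KO, whereas 115 of 2361 symbols (4.87%) in that range in Kai1 KO were at 0 in WT. This range is wide, and the share near the level of Bmp6 alone was not computed.

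Other BMP ligand genes of the list of 14 were also low in WT and listed at 0 in Kai1 KO. Named after their values were seen, these were Bmp8a at 0.608 RPKM in WT, from an estimated 40 reads, and Gdf6 at 0.253, from 25 reads. Gdf7 had 2 estimated reads in WT and Bmp8b and Bmp3 less than 1, so that nothing can be read from their values. Bmp4 was the single ligand gene of the list that was kept. It made up 85.2% of the summed ligand RPKM of 10.8 in WT and over 99% of the sum of 28.4 in Kai1 KO.

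The receptor genes among the members were near the same level in both libraries in the deposited values. Bmpr1a encodes a type I receptor kinase, also called ALK3, and lies on chr14:35223920-35316527 (minus strand). It had 3.14 RPKM in WT (2.88 to 3.42, from 536 reads) and 3.66 in Kai1 KO (3.36 to 3.98, from 561 reads), 1.16-fold higher (1.03 to 1.31), and it was lower with both libraries scaled to Gapdh. Bmpr2 encodes the type II receptor kinase that is selective for BMPs and is known for its mutations in heritable pulmonary arterial hypertension. It lies on chr1:59821481-59927703 (plus strand) and had 4.24 RPKM in WT (3.84 to 4.66) and 3.77 in Kai1 KO (3.37 to 4.20). The log2 ratios were 0.21 for Bmpr1a and -0.17 for Bmpr2. The interval of the Kai1 KO to WT ratio of Bmpr2, 0.767 to 1.03, included 1. Scaled to Gapdh, the log2 ratios were -0.27 for Bmpr1a and -0.65 for Bmpr2.

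Other receptors of the list stood further apart. Of its 11 genes 8 were kept, with a median log2 ratio of -0.44. Of these 0 were more than 2-fold higher and 1 was more than 2-fold lower, beside 7.98% and 7.81% of all genes kept. The lower gene was Acvrl1, which encodes ALK1, the type I receptor for BMP9 and BMP10 that is best known from endothelium. It had 8.37 RPKM in WT and 1.64 in Kai1 KO, 5.11-fold lower (4.29 to 6.12). Eng, which encodes the co-receptor endoglin and was the gene of highest level in the list, had 42.0 and 21.4 RPKM, 1.96-fold lower, just inside the line. Both genes are known from endothelial cells. The 8 endothelial markers summed to 0.994 RPKM in WT, with Pecam1 at 0.413 and Tek at 0.409, and were all listed at 0 in Kai1 KO. Any part of endothelial cells in the values of Acvrl1 and Eng was not tested.

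The make-up of the type I receptors was therefore different in the 2 libraries. The 4 type I genes Bmpr1a, Bmpr1b, Acvr1 and Acvrl1 summed to 20.4 RPKM in WT and 11.4 in Kai1 KO. Bmpr1a made up 15.4% of this sum in WT and 32.2% in Kai1 KO, while Acvrl1 made up 41.1% and 14.4%. The share of Acvr1, the gene of the receptor ALK2, was 37.8% in WT and 50.1% in Kai1 KO. Such shares do not depend on the scaling of the libraries. Of the 3 type II genes, which summed to 7.26 and 5.61 RPKM, Bmpr2 made up 58.3% in WT and 67.1% in Kai1 KO, Acvr2b 27.0% and 17.8%, and Acvr2a 14.7% and 15.1%.

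**Figure D2:**
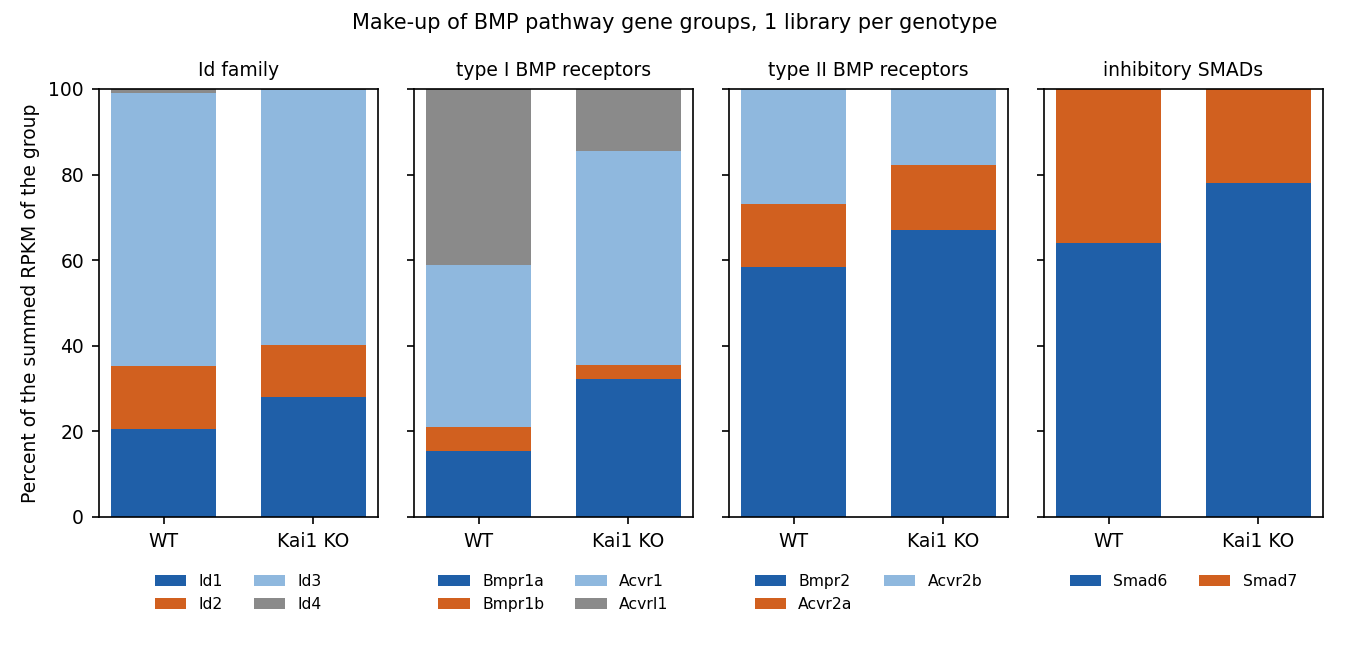
Percent of the summed RPKM of each gene group that each gene makes up, in the WT and the Kai1 KO library. In Kai1 KO the share of Acvrl1 among type I receptors is 14.4% beside 41.1% in WT, and Id3 holds the largest share of the Id family in both libraries.

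Grem1 was among the most abundant members and differed little between the libraries. It encodes gremlin, a secreted protein that binds BMP2, BMP4 and BMP7, and lies on chr2:113586321-113598803 (minus strand), on the chromosome that also holds Cd82, Bmp2 and Id1. It had 94.5 RPKM in WT (92.7 to 96.2) and 105 in Kai1 KO (103 to 107), from 11038 and 11002 reads, 1.11-fold higher (1.08 to 1.14). Its direction turned with both libraries scaled to Gapdh, to a log2 ratio of -0.35 from 0.15. In the WT library the level of Grem1 was 10.2 times that of Bmp4, the ligand it binds, and in the Kai1 KO library 3.68 times.

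The other secreted inhibitors and modulators were mostly lower in Kai1 KO. Of 16 genes 11 were kept, with a median log2 ratio of -0.79. Of these 1 was more than 2-fold higher and 3 were more than 2-fold lower, beside 7.98% and 7.81% of all genes kept. Among the lower genes were Nbl1, which encodes the BMP antagonist DAN, at 149 RPKM in WT and 67.1 in Kai1 KO, and Fstl3, which encodes a follistatin-like protein that binds activin and some BMPs, at 9.10 and 4.38 RPKM. The higher gene was Bmper, the gene of a secreted protein that binds BMPs and modulates them in vessels. It had 5.92 RPKM in WT and 19.2 in Kai1 KO, 3.25-fold higher (2.96 to 3.56), and the ratio of Bmp4 to Bmper was 1.56 in WT and 1.48 in Kai1 KO. Fstl1, a secreted glycoprotein gene and the list's gene of highest level, had 230 and 147 RPKM, a log2 ratio of -0.64.

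Smad6 was lower in the Kai1 KO library. Its protein blocks BMP receptor signalling by competing with the receptor-activated SMADs, and its gene is a target of the pathway. The gene lies on chr9:63800953-63869866 (minus strand) and had 18.0 RPKM in WT (17.0 to 18.9, from 1436 reads) and 10.6 in Kai1 KO (9.82 to 11.3, from 759 reads). The difference was 1.70-fold (1.56 to 1.86), a log2 ratio of -0.76, and 11.7% of the genes kept had a lower ratio. Smad7, the other inhibitory SMAD gene, which acts on TGF-beta and BMP receptors, had 10.1 RPKM in WT and 2.99 in Kai1 KO, 3.39-fold lower (2.99 to 3.84). Their sum was 28.1 and 13.6 RPKM, and Smad6 made up 64.0% of it in WT and 77.9% in Kai1 KO.

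The SMADs that carry the signal differed by less than a factor of 1.5 in the deposited values. Named here after their values were seen, Smad1 had 6.53 RPKM in WT and 7.46 in Kai1 KO, Smad5 2.21 and 2.67, Smad9 2.40 and 2.66, and Smad4, the partner they share with TGF-beta, 8.48 and 5.90. All 12 genes of the list of SMADs and intracellular regulators were kept. Of these 0 were more than 2-fold higher and 2 (Smad7 and Bambi) more than 2-fold lower, beside 7.98% and 7.81% of all genes kept. The median log2 ratio of the list was -0.39. Bambi encodes a pseudoreceptor without a kinase and had 1.53 RPKM in WT and 0.634 in Kai1 KO. Ski, a nuclear repressor of SMADs and the gene of highest level in the list, had 17.4 and 14.7 RPKM, a log2 ratio of -0.24.

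Each of the 3 Id genes differed between the libraries by less than 1.5-fold in the deposited values, Id1 in the direction opposite to Id2. Id1, on chr2:152561987-152563146 (plus strand), is the classic early target of BMP SMADs. It had 76.0 RPKM in WT (72.8 to 79.2, from 2158 reads) and 109 in Kai1 KO (105 to 113, from 2790 reads). This was 1.44-fold higher (1.36 to 1.52), a log2 ratio of 0.52, and 23.6% of the genes kept had a higher ratio. Over the 1582 genes with a mean of 50 RPKM or more, the median log2 ratio was 0.27. All RPKM values summed to 884463 in WT and 1238190 in Kai1 KO, and Gapdh was 1.41-fold higher in Kai1 KO. The size of the Id1 difference thus depends on the scaling of the libraries. With both libraries scaled to Gapdh the log2 ratios were 0.024 for Id1, -0.67 for Id2 and -0.51 for Id3, so that Id2 was then past 1.5-fold and Id1 differed least.

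Id2 and Id3 differed less between the libraries than Id1 did in the deposited values. Id2, on chr12:25778666-25780957 (minus strand), encodes the Id protein also known from lymphoid and neural cells. It had 54.1 RPKM in WT (51.6 to 56.7, from 1713 reads) and 48.1 in Kai1 KO (45.5 to 50.7, from 1368 reads), a Kai1 KO to WT ratio of 0.888 (0.827 to 0.954). Id3, on chr4:135699412-135701670 (plus strand), acts together with Id1 in the vessels of the embryo. It was the most abundant of the 10 genes in both libraries, with 235 RPKM in WT (230 to 241, from 7502 reads) and 233 in Kai1 KO (228 to 239, from 6691 reads). The ratio was 0.992 (0.960 to 1.03), with an interval that included 1, and 97.9% of all symbols in WT and 97.7% in Kai1 KO had a lower level.

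The Id family, Id1, Id2, Id3 and Id4, summed to 369 RPKM in WT and 391 in Kai1 KO. Id3 made up 63.8% of the sum in WT and 59.7% in Kai1 KO, Id1 20.6% and 27.9%, and Id2 14.7% and 12.3%. Id4, the fourth gene of the family and not one of the 10 members, had 3.52 RPKM in WT and 0.488 in Kai1 KO, 7.22-fold lower (4.47 to 12.3), from an estimated 152 and 19 reads. Its share was 0.954% and 0.125%. Within the library the level of Id1 was 1.40 times that of Id2 in WT and 2.27 times in Kai1 KO.

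**Figure D3:**
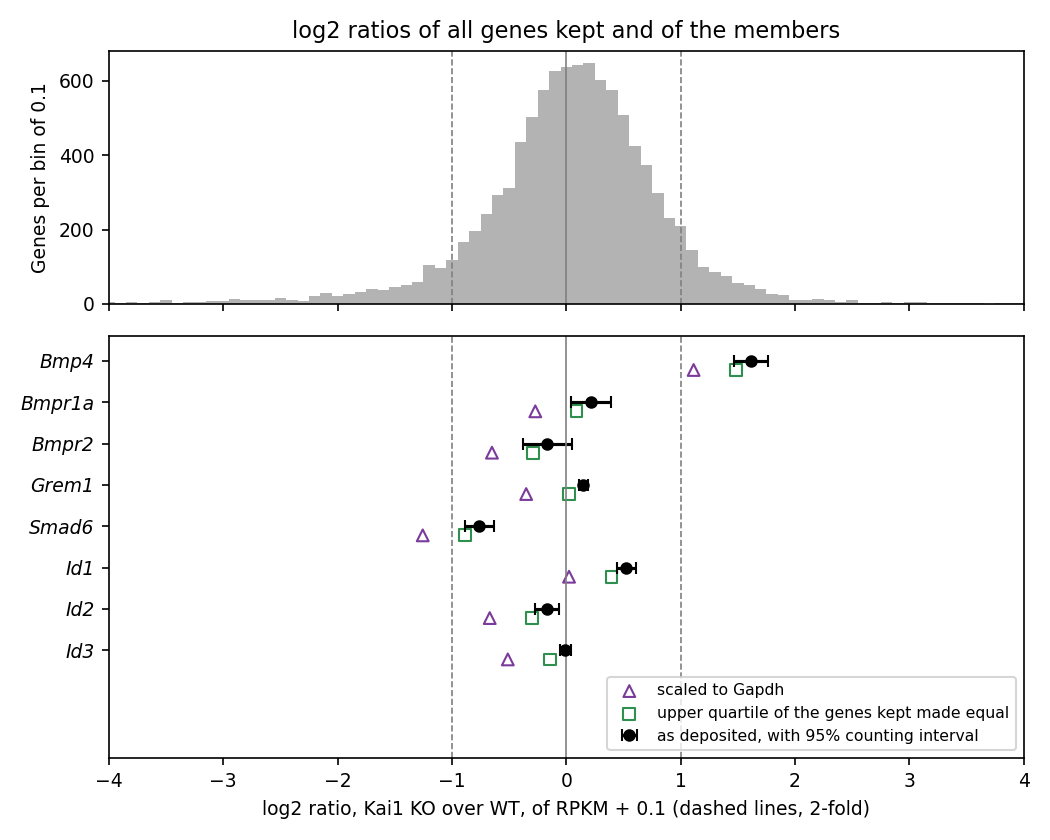
Upper panel, number of genes per log2 ratio bin of 0.1 among the 10068 genes kept, within the axis. Lower panel, log2 ratio of Kai1 KO over WT of RPKM plus 0.1 for the 8 members kept, as deposited (black, with the 95% counting interval), with upper quartiles made equal (squares) and scaled to Gapdh (triangles). Bmp4 lies beyond the dashed 2-fold line at 1.61 in the deposited values, and Bmpr1a and Grem1 lie on the other side of 0 when scaled to Gapdh.

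Target genes of the pathway did not share 1 direction. The log2 ratios of Id1, Id2, Id3 and Smad6, the members with the composite element shown above, were 0.52, -0.17, -0.011 and -0.76. Id1 and Id2, whose stretches share 35 of 55 bases, lay on opposite sides of 0. The ratio of Smad6 to Id1 within a library was 0.236 in WT and 0.0967 in Kai1 KO. Of the 15 target genes of the list 10 were kept, 3 with a log2 ratio above 0 and 7 below. Their median log2 ratio was -0.47. Among them 0 were more than 2-fold higher and 4 more than 2-fold lower, beside 7.98% and 7.81% of all genes kept. These 4 were Id4, Smad7, Bambi and Msx2, and none of them held the element in the 3000 bases. Msx2, a homeobox gene that BMP induces in mesenchyme and bone, had 7.84 RPKM in WT and 0.536 in Kai1 KO, 14.6-fold lower (10.2 to 21.6). Atoh8, a bHLH gene named after its value was seen, had 36.6 and 46.3 RPKM.

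The bHLH genes whose proteins Id proteins can bind were within 2-fold in the deposited values, apart from 1 gene. Of 7 genes 6 were kept, with a median log2 ratio of 0.14. Of these 0 were more than 2-fold higher and 1 more than 2-fold lower, beside 7.98% and 7.81% of all genes kept. The gene beyond the line was Hand2, known from heart and limb development. It had 4.95 RPKM in WT, from an estimated 298 reads, and was listed at 0 in Kai1 KO. Twist2, the gene of highest level in the list, had 43.8 and 34.4 RPKM, a log2 ratio of -0.35. Tcf3, which encodes the E proteins that are the best known partners of Id proteins, had 12.8 RPKM in WT and 23.9 in Kai1 KO, a log2 ratio of 0.89, and was named after its values were seen.

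**Figure D4:**
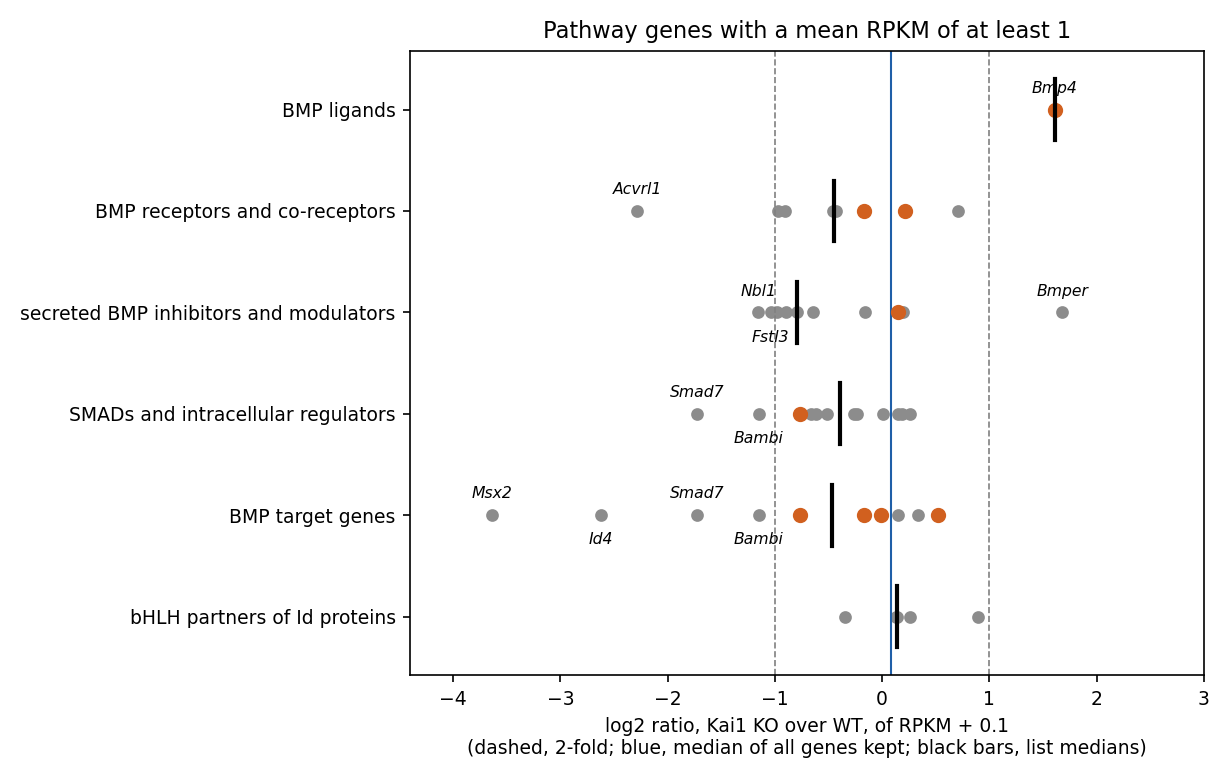
Log2 ratio of Kai1 KO over WT of RPKM plus 0.1 for the genes of the 6 lists that were kept and are reported (orange, members; gray, other genes; black bars, list medians; blue line, median of all genes), without Hand2, which is listed at 0 in Kai1 KO. Bmp4 and Bmper lie beyond the 2-fold line on the higher side, and Msx2, Id4, Acvrl1, Smad7, Nbl1, Bambi and Fstl3 on the lower side.

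Over the 6 lists together, which hold 70 different genes, 44 were kept. Of these 2 (4.55%) were more than 2-fold higher and 9 (20.5%) more than 2-fold lower, beside 7.98% and 7.81% of all genes, and the median log2 ratio was -0.31. The members counted among the 44 gave 1 of the 2 higher genes and none of the 9 lower genes. The lists were compiled with earlier results of these data known. Marker lists of mural cells and fibroblasts were lower too, with 4 of 7 mural markers and 5 of 7 fibroblast markers of sufficient level past the line and median log2 ratios of -1.04 and -1.15. The summed level of 8 fibroblast markers was 3120 RPKM in WT and 1490 in Kai1 KO. The part of these differences in the pathway counts was not tested.

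The order of the 10 genes by level was close in both libraries. In WT it ran Id3, Grem1, Id1, Id2, Smad6, Bmp4, Bmpr2, Bmpr1a, Bmp6 and Bmp2, and no neighbours had overlapping counting intervals. In Kai1 KO it ran Id3, Id1, Grem1, Id2, Bmp4, Smad6, Bmpr2 and Bmpr1a, with Bmp6 and Bmp2 at 0. There the intervals of Id1 (105 to 113 RPKM) and Grem1 (103 to 107) overlapped, as did those of Bmpr2 (3.37 to 4.20) and Bmpr1a (3.36 to 3.98). The pairs that changed places were Id1 with Grem1 and Bmp4 with Smad6. The ratio of Bmp4 to Grem1 went from 0.0978 in WT to 0.271 in Kai1 KO, 2.78 times as high, and no scaling of the libraries alters it.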

How the data were processed

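RNA of 2 primary PC cultures, WT and Kai1 KO, was sequenced. Per the labels and methods, the authors used TopHat 2.0.9 and Bowtie for alignment to mm9, tested differences with Cuffdiff (not used here) and deposited RPKM values of RefSeq genes, 1 per gene and library. Depth, layout and strand were not given in the sources used here, so reads of antisense transcripts cannot be told apart. Of 20462 rows, 38 had no symbol and were left out, and 153 repeated symbols were averaged.

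Ratios were log2((Kai1 KO + 0.1)/(WT + 0.1)) of RPKM, and genes with a mean level of 1 RPKM or more were kept. Depth was estimated by fitting low values to whole reads, over genes with a single transcript, of over 800 bases, in GENCODE M1 (NCBI37). A fragment of 200 bases was assumed. Reads of each gene were then estimated with the length of its longest annotated transcript. Where shorter transcripts were expressed, these reads may be too high and the intervals too narrow. Positions came from the same annotation. Within 0.15 of a whole read lay 81.0% of 427 WT values and 80.4% of 240 Kai1 KO values. Fold intervals were exact conditional Clopper-Pearson intervals and level intervals exact Poisson intervals, both 95%. The steps were tested on simulated data. Python 3.11.15, numpy 2.4.6, pandas 2.3.3, scipy 1.17.1 and matplotlib 3.10.9 were used.

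Genes named were the 10 members, Cd82, each gene of the 6 pathway lists that was kept and past 2-fold, and the gene of highest level per list. Of these, 1 list gene that the rule takes is not reported here, though the counts and medians include it. Others are said to be named after their values were seen. The members and lists were chosen with earlier results of these data known. Alternatives were other pseudocounts, scalings, filters, fold lines and the sum of repeated symbols.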

Additional observations from a re-analysis of the deposited data

How the results depend on the processing

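No paired analysis was possible because 1 library stands for each genotype, and no replicate could be left out. With both libraries scaled to Gapdh, 1 member (Smad6) was more than 2-fold lower, as were 1856 genes, and 278 genes were higher. The median log2 ratio was then -0.43 for the members, beside -0.41 for all genes. It was -0.93 for receptors, -1.29 for inhibitors, -0.88 for SMADs, -0.96 for targets and -0.36 for bHLH partners. For ligands it was 1.11, which is the value of Bmp4 alone, the single ligand gene kept. With upper quartiles made equal, 977 genes were lower and 594 higher, the members' median was -0.059 and that of bHLH partners 0.0098. With the median of all genes set to 0, the members' median was -0.013. With no filter on level, 2 members (Bmp2 and Bmp6, listed at 0) were lower, as were 1878 genes, and 1205 genes were higher. The medians were then -0.088 for the members, 0 for ligands, -0.26 for inhibitors and -0.17 for targets. That ligand median covers 14 genes, of which 6 were listed at 0 in WT and 12 in Kai1 KO. With genes of a mean RPKM of 5 or more, 350 genes were lower and 511 higher, and the medians were -0.97 for receptors and -0.091 for targets. With a line of 1.5-fold, 1 member (Smad6) was lower, as were 1634 genes, and 2081 were higher.

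Of 150 recomputed values of 25 single genes, 148 kept their sign. The others were Bmpr1a (-0.27) and Grem1 (-0.35), both scaled to Gapdh. A change of pseudocount cannot alter a sign, and none of these genes had a repeated symbol. Only the changes of scaling could therefore turn a direction, and the count of signs kept says little about the other settings. The 2-fold line was crossed by 9 values. Scaled to Gapdh these were Smad6 (-1.26), Eng (-1.47) and Fstl1 (-1.14). Eng also crossed it with the median of all genes set to 0 (-1.05) and with upper quartiles made equal (-1.10). With a pseudocount of 1 RPKM, Fstl3 (-0.91), Bambi (-0.63), Bmp2 (-0.21) and Bmp6 (-0.60) came inside it. Bmp4 stayed more than 2-fold higher under each of these alternatives. Depth limits Bmp2 and Bmp6, with 16 and 48 estimated reads in WT, and Id4, with 19 in Kai1 KO.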
